A study of Homo sapiens with 24 samples.

Results

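HCC1500 is an established human breast carcinoma cell line that carries the estrogen receptor. Its cells received medium holding either 5 mM (low glucose) or 25 mM (high glucose) of the sugar over 48 hours, and their RNA was then sequenced. The line gave 8 of the 24 cultures of the series, 4 per glucose level. The comparison used all 4 low glucose cultures and high glucose replicates 1, 2 and 4, so 7 cultures. High glucose replicate 3 stood apart in its total and in how its values followed gene length and served only as a check. Genes were taken when they had a value of at least 0.5 in 3 or more of the 7 cultures, which kept 16517 of the 18889 genes listed. According to the study's methods the medium held no serum, and all cells had first been conditioned in low glucose, so both groups share these treatments. Mannitol was added to the low glucose medium in part of the study's experiments to equalise osmolarity, and whether these cultures received it is not given in the sources used here. All cultures come from a single cell line, and nothing in the labels says that same-numbered flasks belong together. The p-values therefore measure the spread between these flasks, which may be technical.

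Glucose is taken up by transporters of the SLC2A family and phosphorylated by hexokinases. Glucose 6-phosphate activates the transcription factors MondoA (MLXIP) and ChREBP (MLXIPL), which bind paired E-boxes with their partner MLX. Their best known targets are the arrestin-domain genes TXNIP and ARRDC4, whose proteins restrain glucose uptake and thereby close a feedback loop. In luminal breast cells, growth and much of the transcriptome depend on the estrogen receptor (ESR1) together with the factors GATA3 and FOXA1.

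The recovered reads per library ran from 13190982 to 17998819 in low glucose and from 9423472 to 12140912 in the 3 high glucose cultures. Sequencing depth and glucose level cannot be told apart in this design, because every low glucose library was deeper than every high glucose library. Values below are deposited normalized read counts, in which 1 read was worth between 0.318 and 0.590 units. Means are given ± SD, with n = 4 in low and n = 3 in high glucose, and log2 changes are high minus low on the log2(value + 1) scale, ± SE. Profiles of cultures of the same group correlated across genes with r of at least 0.991, whereas replicate 3 reached 0.915 to 0.920 against the other high glucose cultures. Genes are not independent replicates, so these r values only describe the profiles. The deposited total of replicate 3 was 7319781, against 5559394 to 5604083 in the other 3. Across 12559 genes its distance from them ran against exon length (Spearman rho = -0.54) and with GC content (rho = 0.46), so short and GC-rich genes lay high in it. The side on which replicate 3 lay for a gene can therefore come from this trend as well as from glucose, here and below. The log2 change without replicate 3 also ran against GC content (rho = -0.24, and 0.087 with exon length), and removing both trends turned the split of calls from 3406 rising and 6114 falling to 4905 and 4236. All 8 luminal markers examined had mean values of at least 100, and their summed level was 32482 to 34196 in low and 30778 to 30899 in high glucose. Basal markers summed to 8.44 to 11.02 and 13.9 to 16.2, leukocyte markers to 2.15 to 5.08 and 11.2 to 19.4, and all 3 endothelial markers lay under 3. Among 6 fibroblast genes, summing to 264.5 to 295 in low and 222 to 257 in high glucose, COL1A1 was the only member above 100 and DCN was at 0 in all 7 cultures. The 2 adipocyte markers summed to 0.635 to 1.14 in low and 1.18 to 1.99 in high glucose, and the part of any of these levels in the results below was not tested.

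TXNIP, which encodes a thioredoxin-binding arrestin and is the standard readout of glucose sensing, rose 1.99-fold in high glucose. The gene (ENSG00000117289) lies at chr1:145438490-145442635, plus strand, in the GRCh37 annotation. Its values were 2474, 2615, 2608 and 2525 in low glucose replicates 1 to 4 and 5084, 5080.0 and 5081 in high glucose replicates 1, 2 and 4. The 3 high cultures were nearly equal and lay far above all low cultures (log2 change 0.99 ± 0.026, adjusted p = 2.3e-15, limma). Replicate 3 had 5509.8, on the same side. ARRDC4 (ENSG00000140450, chr15:98503933-98517063, plus strand), a relative of TXNIP that also restrains glucose uptake, changed by 0.37 ± 0.12 (adjusted p = 0.011). Its low glucose values of 56.2, 50.8, 59.1 and 67.6 overlapped the high glucose values of 64.9, 83.6 and 79.9. It was called under the 3 other scalings as well, all of which move the median change of all genes upward. With replicate 3, at 79.5, its change was 0.39 and its adjusted p 0.072.

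The promoters of these 2 genes are shown for their E-boxes, the TXNIP window holding the paired form and the ARRDC4 window a single CACGTG. The windows are from RefSeq on GRCh38.p14, 5′ to 3′ on the strand of the gene, at chr1:145996580-145996729, minus strand, for TXNIP and chr15:97960473-97960702, plus strand, for ARRDC4, both within the bases just before the transcription start. Capitals mark E-boxes (CACGTG, or the pair CACGNG, any 5 bases, CACGNG) and CCAAT boxes, on either strand.
TXNIP: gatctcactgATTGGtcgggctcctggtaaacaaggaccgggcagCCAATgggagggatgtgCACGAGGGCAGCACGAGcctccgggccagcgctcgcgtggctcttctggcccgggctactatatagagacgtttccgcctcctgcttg
ARRDC4: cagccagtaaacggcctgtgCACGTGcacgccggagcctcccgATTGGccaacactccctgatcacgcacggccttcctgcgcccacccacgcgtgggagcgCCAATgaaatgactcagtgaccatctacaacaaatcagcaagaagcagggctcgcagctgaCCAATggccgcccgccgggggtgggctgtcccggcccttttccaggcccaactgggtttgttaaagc
The paired form was found in 16 of 35116 RefSeq promoters (0.0456%, 250 bases before the start), and in 1 of the 9 promoters matched for the glucose sensing list, that of TXNIP. CACGTG was in 6.34% of all promoters and in 3 of these 9, those of ARRDC4, MLX and G6PC3. A match is a description of letters and shows no binding.

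Of 12 tested genes of the glucose sensing list, 5 rose, 4 fell and 3 did not pass the test, with a median change of 0.15 against -0.12 over all genes. Of all genes tested 20.6% rose and 37.0% fell, so the falling share of the list was near that of all genes. KLF10, a glucose-responsive repressor, rose from 546 ± 22.1 to 920.4 ± 27.2 (log2 change 0.75 ± 0.038, adjusted p = 1.3e-11). G6PC3, the ubiquitous glucose 6-phosphatase, went the other way, from 792 ± 28.8 to 434 ± 2.64 (-0.87 ± 0.037, adjusted p = 1.2e-12). DAK, a triose and glycerone kinase, fell by 0.81 and ARRDC1, an arrestin of vesicle budding, fell by 0.56 on the log2 scale. These 3 decreases were not shared by replicate 3, which lay above all low cultures at 976, 327 and 511. The sensor gene MLXIP itself had 621 ± 41.1 in low and 611 ± 8.02 in high glucose (adjusted p = 0.69). With replicate 3 in the fit, 2 genes of the list rose and 0 fell.

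Across the transcriptome, 9520 of 16517 genes (57.6%) passed an adjusted p of 0.05 in limma's test. Of these, 3406 rose (20.6% of genes tested) and 6114 fell (37.0%). Most changes were small, with a median size of 0.38 on the log2 scale among rising and 0.48 among falling genes. A change of at least 1 was reached by 407 rising and 817 falling genes, and a change of at least 2 by 45 and 35. The groups did not overlap for 57.3% of all genes, so a lack of overlap by itself was common here. The median of all changes stood at -0.12 in the values as given. Rescaling by median of ratios, in which each culture is divided by its median ratio to the average profile, brought it to -0.011. It turned the split to 4684 rising (28.4%) and 4578 falling genes (27.7%), and the share of rising calls from 35.8% to 50.6%. The 3 other scalings tried were median of ratios, CPM and edgeR on recovered reads. In all of them 3387 of 3406 rising calls (99.4%) were called the same way, against 4460 of 6114 falling calls (72.9%). Each moved the median of all changes upward, to -0.011, -0.079 and -0.022. That shift favours rising over falling calls, so these shares do not show that rises were more robust. Small decreases should therefore be read relative to the median of all genes. With replicate 3 included, 3324 of 16648 genes were called, 1214 rising and 2110 falling. Replicate 3 lay on the same side as the other high cultures for 119 of 134 rising genes (88.8%) and 377 of 457 falling genes (82.5%) that had a change of at least 1 and a mean of at least 20. In bulk RNA, fewer cells that express a gene and less RNA of it per cell cannot be told apart.

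**Figure D1:**
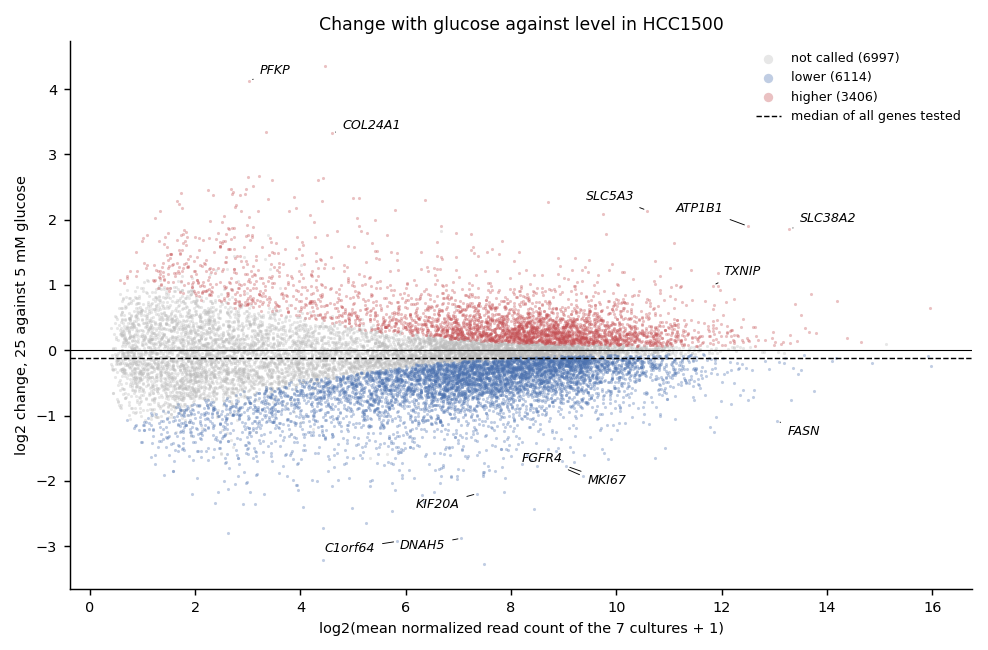
Log2 change (high minus low glucose, y axis) against the log2 mean value of the 7 cultures (x axis) for the 16517 tested genes, 1 dot per gene, coloured by call, with selected genes named. The dashed line is the median of all genes at -0.12, and 407 genes lie at or above a called change of 1 while 817 lie at or below -1.

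The steepest increases among genes with a mean of at least 20 held channels, receptors and transporters beside unnamed transcripts. KCNE4, a regulatory subunit of voltage-gated potassium channels (chr2:223916908-224063117, plus strand), had 161, 159, 163 and 147 in low and 736, 796 and 749 in high glucose. All high cultures, replicate 3 at 888 included, lay far above the low ones (4.83-fold, log2 change 2.26 ± 0.0495, adjusted p = 2.3e-16). COL24A1, a fibrillar collagen gene, rose from 4.01 ± 1.01 to 48.8 ± 5.01 (3.33 ± 0.22), and ADRA2A, an adrenergic receptor gene, from 11.7 ± 2.53 to 62.3 ± 2.92 (2.34 ± 0.17). PLA2G4C, a cytosolic phospholipase, rose by 2.33 ± 0.17, and MCAM, an adhesion molecule of the endothelium and of melanoma, by 2.14 ± 0.13. Replicate 3 was above the low cultures for each of these. The long noncoding RP11-733O18.1 rose from 1.47 ± 1.04 to 46.97 ± 1.93 (4.36 ± 0.29), RP11-196G18.3 from 29.6 ± 1.37 to 150.4 ± 6.21, and CYP2B7P1, a cytochrome pseudogene with a close functional copy, from 5.67 ± 1.05 to 40.4 ± 4.86. FCGR1A, a phagocyte immunoglobulin receptor with near-identical copies, had 38.9, 42.3 and 32.8 in high glucose but 0 in replicate 3, and its value is uncertain. SLC5A3 completes the 10 and is described with the osmolyte transporters.

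The steepest decreases included DNAH5, an axonemal dynein heavy chain, whose values were 209, 206, 209 and 219 in low and 25.96, 28.4 and 29.1 in high glucose. It was 7.58-fold lower with no overlap (log2 change -2.88 ± 0.081, adjusted p = 5.0e-15), and replicate 3 had 21.5. VSTM2A, a secreted immunoglobulin-domain protein, fell from 535 ± 17.2 to 98.4 ± 3.71 (-2.43 ± 0.049, adjusted p = 1.0e-16). C1orf64, an estrogen-related transcript of luminal breast tumors, fell from 89.7 ± 7.84 to 11.5 ± 4.65 (-2.93 ± 0.19). Losses of more than 2 on the log2 scale were also seen for PKP1, a desmosomal plakophilin (-2.32 ± 0.11), PVALB, the calcium buffer parvalbumin (-2.46 ± 0.15), EXOC3L4 (-2.65 ± 0.17) and C2orf54 (-2.21 ± 0.12). Replicate 3 was below the low cultures for all of these. The noncoding RP13-379L11.1 fell from 33.8 ± 2.48 to 2.78 ± 0.665, and U47924.25, for which no coordinates were matched, from 47.3 ± 1.02 to 8.24 ± 2.43. CTB-175E5.4 fell from 33.7 ± 26.8 to 2.99 ± 1.63 (adjusted p = 3.4e-04), but replicate 3 had 80.9, above every low culture. Exons of PLA2G4C, MCAM, DNAH5, VSTM2A, C1orf64, CYP2B7P1 and FCGR1A share bases with other genes, and since strand handling is not stated for these libraries, reads of the partners cannot be told apart.

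**Figure D2:**
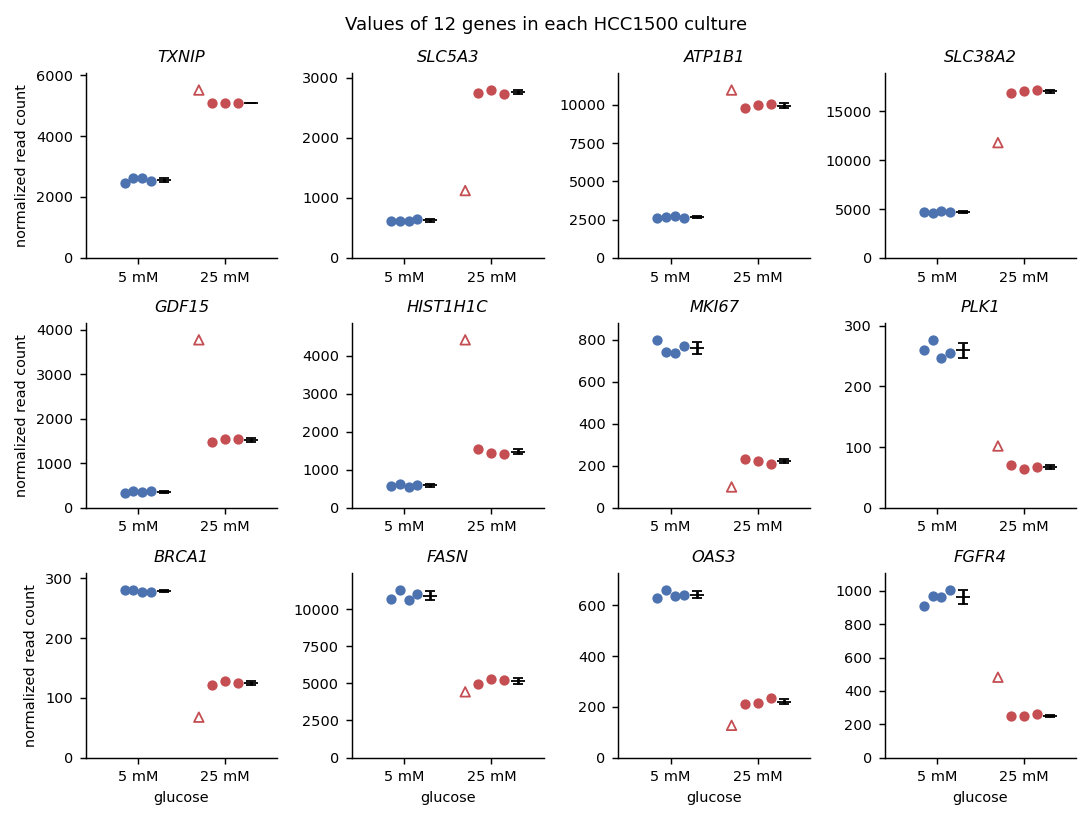
Deposited normalized value (y axis, from 0) of 12 genes in each HCC1500 culture, with dots for the 4 low and 3 high glucose cultures, bars for mean ± SD beside them, and an open triangle for high glucose replicate 3. The dots of the groups do not overlap for any of the 12 genes, and the triangle for SLC5A3, at 1120.5, lies well below the other high cultures.

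Genes of cell division fell together. Of 51 mitosis genes 50 fell and 1 rose, with a median change of -1.51, and all 11 genes of a short proliferation score fell (median -1.75). MKI67, the proliferation antigen Ki-67, had 799, 739, 737 and 769 in low and 231, 224 and 209.6 in high glucose. No high culture came near a low one (3.43-fold lower, log2 change -1.78 ± 0.044, adjusted p = 1.4e-15), and replicate 3 was lower still at 98.8. PLK1, the kinase that drives entry into and passage through mitosis, had 259.6, 277, 247 and 254 in low and 69.6, 64.2 and 67.9 in high glucose (-1.93 ± 0.065, adjusted p = 5.6e-14). Its groups were separated by more than their own spread many times over, and replicate 3 had 102.

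Members of each mitotic role took part. Among kinetochore and spindle genes 20 of 20 fell (median -1.68), among genes of mitotic exit 12 of 12 (median -1.37) and among cyclins and kinases 14 of 15 (median -1.42). KIF20A, a kinesin of cytokinesis, fell from 246 ± 3.05 to 53.2 ± 6.91 (-2.196 ± 0.081), and AURKB, the kinase of the chromosomal passenger complex, from 78.2 ± 6.39 to 18.5 ± 3.78 (-2.03 ± 0.14). Cyclin A2 (CCNA2) fell by 2.03, the kinetochore genes NDC80 by 1.997 and NUF2 by 1.83, and UBE2C, the ubiquitin-conjugating enzyme of the anaphase-promoting complex, by 1.85 on the log2 scale. Cyclin B1 (CCNB1) changed less, from 978 ± 23.5 to 519 ± 16.3 (-0.91 ± 0.035). The single member that rose was CDC25B, a phosphatase that activates cyclin-dependent kinases, from 284 ± 12.3 to 326 ± 12.4 (0.198 ± 0.049, named after its value was seen). With replicate 3 included 47 of 51 fell and 0 rose, and replicate 3 alone was below all low cultures for 47 of them.

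Promoters of PLK1 and of CDC20, the activator of the anaphase-promoting complex, are shown because promoters of the mitosis list often hold motifs of cell cycle genes. CDC20 was chosen after its values were seen, and fell from 308 ± 13.4 to 107 ± 3.23 (-1.52 ± 0.056). The windows are RefSeq GRCh38.p14, chr16:23678769-23678888, plus strand, for PLK1 and chr1:43358781-43358980, plus strand, for CDC20, with CCAAT boxes and the cell cycle homology element TTTGAA in capitals, on either strand.
PLK1: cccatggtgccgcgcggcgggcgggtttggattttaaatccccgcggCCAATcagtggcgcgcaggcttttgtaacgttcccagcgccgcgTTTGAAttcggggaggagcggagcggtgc
CDC20: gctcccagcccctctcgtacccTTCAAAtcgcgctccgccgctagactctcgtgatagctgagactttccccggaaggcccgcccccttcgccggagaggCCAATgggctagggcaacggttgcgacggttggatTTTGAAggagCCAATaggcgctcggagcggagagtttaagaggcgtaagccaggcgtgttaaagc
CCAAT was found in 30 of 42 matched mitosis promoters (71.4%) against 32.0% of all promoters, and TTTGAA in 19 of 42 (45.2%) against 13.3%. These are shares of letters within 250 bases, given without a test.

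DNA replication genes also fell, 51 of 54 with none rising (median -0.82) in limma's test. At an unadjusted p of 0.05 0 rose, and edgeR called 3 higher. After rescaling 48 fell and 3 rose, and 34 fell with replicate 3 included. RRM2, the ribonucleotide reductase subunit that supplies deoxynucleotides, had 543, 502, 524 and 498 in low and 146, 153 and 150.5 in high glucose. It was 3.45-fold lower (-1.78 ± 0.047, adjusted p = 2.9e-15), with replicate 3 at 166. Thymidine kinase TK1 fell from 574 ± 26.2 to 201 ± 6.27 (-1.51 ± 0.046), the replicative helicase subunit CDC45 from 227 ± 9.74 to 74.6 ± 12.7 (-1.603 ± 0.088) and MCM10 from 222 ± 5.16 to 84.5 ± 6.803 (-1.39 ± 0.067). E2F2, a transcription factor of the G1/S transition, fell by 1.51 on the log2 scale. Replicate 3 was below all low cultures for these 5 genes, though less so for TK1, at 459.6.

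Most repair genes of the recombination lists were lower too. In homologous recombination and the Fanconi pathway 31 of 39 fell and 4 rose (median -0.67), and in mismatch and excision repair 31 of 45 fell and 3 rose (median -0.35). In end joining 8 of 11 fell and 1 rose, with a median of -0.17 that was close to that of all genes and 4 falling calls after rescaling. BRCA1, the tumor suppressor of homologous recombination, had 280.5, 281, 278 and 278 in low and 122, 128 and 125 in high glucose. The groups were apart (2.24-fold lower, -1.16 ± 0.052, adjusted p = 2.5e-12) and replicate 3 had 67.6. BRCA2, another gene of recombination, fell from 70.96 ± 7.79 to 36.7 ± 7.36 (-0.94 ± 0.13, adjusted p = 8.7e-06). Larger decreases were those of EXO1, a resection and mismatch exonuclease (-1.600 ± 0.086), FANCI (-1.49 ± 0.052) and FANCD2 (-1.46 ± 0.065), which form the Fanconi clamp, the helicase BLM (-1.46 ± 0.10) and RAD54L (-1.38 ± 0.0796). Replicate 3 was below the low cultures for all of these genes. Over the lists, 22 of 39 recombination genes and 13 of 45 excision and mismatch genes fell with replicate 3 in the fit.

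In base excision, the glycosylase NEIL3 fell from 26.4 ± 5.23 to 5.89 ± 1.31 (-1.99 ± 0.22). OGG1, which removes oxidised guanine, fell by 0.92, the scaffold XRCC1 by 0.75 and the uracil glycosylase SMUG1 by 0.73 on the log2 scale. Replicate 3 was above the low cultures for SMUG1, at 287, and within them for XRCC1. In end joining DCLRE1C, the nuclease Artemis, changed by -0.72 ± 0.0905, XRCC4 by -0.34 ± 0.087, TP53BP1 by -0.33 ± 0.047 and POLL by -0.29 ± 0.087. For XRCC4 and POLL replicate 3 lay above the low cultures, at 105.4 and 153. The call of POLL was lost in limma after median of ratios rescaling (adjusted p = 0.10) and in edgeR (adjusted p = 0.087). That of XRCC4 was lost in DESeq2 (adjusted p = 0.12). DNA ligase LIG4 rose from 102 ± 5.93 to 157 ± 5.31 (0.62 ± 0.071, adjusted p = 5.9e-07), whereas its replicate 3 value of 89.8 was below all low cultures. Overlaps with other genes make the values of KIF20A, CCNA2, PLK1, EXO1, FANCI, FANCD2, BLM, RAD54L, BRCA1, OGG1, XRCC1 and DCLRE1C less certain.

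Targets of p53 rose while the division genes fell. Of 19 such targets 14 rose and 2 fell (median 0.705), and of the whole list with cyclin-dependent kinase inhibitors and G1 cyclins 15 of 26 rose and 6 fell (10 and 2 with replicate 3). GDF15, a stress-induced cytokine, had 339, 370.4, 345 and 382 in low and 1474, 1549 and 1539 in high glucose. All high cultures exceeded the low ones (4.24-fold, 2.08 ± 0.043, adjusted p = 1.0e-16), and replicate 3 had 3771. CDKN1A, the kinase inhibitor p21 and classic p53 target, rose from 1886 ± 37.3 to 3154 ± 75.8 (0.74 ± 0.027, adjusted p = 1.8e-13). TNFRSF10B, a death receptor, rose by 1.101 ± 0.0399, ZMAT3, an RNA-binding target of p53, by 1.098 ± 0.038, and AEN, an apoptosis-enhancing nuclease, by 1.06 ± 0.044. CDKN2C, the kinase inhibitor p18, fell from 187 ± 6.86 to 84.2 ± 5.495 (-1.14 ± 0.069), in the opposite direction to p21.

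Clustered histone genes rose, although their transcripts normally accompany DNA synthesis and the replication genes fell. Of 24 tested members 19 rose and 0 fell (median 0.86), by edgeR 19 and 0 and at an unadjusted p of 0.05 likewise 19 and 0, with 15 rising when replicate 3 was included. HIST1H1C, a linker histone gene, had 561, 633, 553 and 603 in low and 1542, 1446 and 1417 in high glucose. The groups were far apart (2.499-fold, 1.32 ± 0.045, adjusted p = 6.1e-14), and replicate 3 stood at 4420.4, beyond them. HIST1H4H rose from 278 ± 14.99 to 741 ± 25.7 (1.41 ± 0.046), HIST1H3D from 48.6 ± 2.07 to 116 ± 4.75 (1.24 ± 0.09) and HIST1H2AG from 105 ± 7.39 to 234 ± 4.77 (1.16 ± 0.067). HIST2H4A, which has an identical copy and no matched coordinates, changed by 1.27 ± 0.19. Most such transcripts lack a poly(A) tail, the selection of RNA is not stated for these libraries, and 7 of the 31 members are not analysed here. Members share similar sequences, so how reads were divided among them is uncertain.

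Genes of glucose uptake and glycolysis did not rise as a group. Of 44 tested, 10 rose and 26 fell in the values as given (median -0.201), and 12 rose and 15 fell after rescaling by median of ratios (median -0.082). Among all genes tested 20.6% rose and 37.0% fell, or 28.4% and 27.7% after rescaling. The rising share of the list was thus near that of all genes. PFKP, the platelet-type phosphofructokinase, was at 0 in all 4 low glucose cultures and had 18.3, 18.9 and 12.9 in high glucose, on 28 to 38 reads per culture. It was at least 59.7-fold higher against a floor of 3 reads over the low group, and replicate 3 had 13.4 on 18 reads. By contrast PFKL, the liver-type enzyme of the same step, fell from 1345 ± 96.9 to 704 ± 27.9 (-0.93 ± 0.046, adjusted p = 9.3e-12), although replicate 3 at 1271 was within the low cultures. PFKFB3, whose product activates phosphofructokinase, rose from 119 ± 10.6 to 211 ± 16.1 (0.82 ± 0.076).

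Transporters were split. SLC2A10 fell from 459 ± 11.2 to 241 ± 15.5 (-0.93 ± 0.048), and SLC2A13, a proton-coupled inositol transporter, rose from 189 ± 1.96 to 363 ± 11.9 (0.94 ± 0.048) with replicate 3 below the low cultures at 182. SLC2A1, the basal glucose transporter, changed by -0.25 ± 0.031 and hexokinase HK2 by -0.41 ± 0.034, and replicate 3 was above the low cultures for SLC2A1. Lactate dehydrogenase LDHA rose from 2225 ± 20.9 to 2894 ± 104 (0.38 ± 0.028, adjusted p = 1.8e-09), and PDK4, which shuts pyruvate out of the citrate cycle, from 0.727 ± 0.378 to 4.66 ± 2.59, a level near that of a few reads. In the pentose phosphate, hexosamine and polyol pathways 2 of 17 rose and 7 fell (median -0.059, or 0.06 after rescaling), the falling share being near the 37.0% of all genes. Sorbitol dehydrogenase SORD fell from 507 ± 16.9 to 264 ± 7.53 (-0.94 ± 0.043), shared by replicate 3 at 333. PGLS and TALDO1, enzymes of the pentose pathway, changed by -0.60 ± 0.066 and -0.399 ± 0.045, but replicate 3 lay above the low cultures for both. GFPT1, the first enzyme of the hexosamine route, did not pass the test (-0.031 ± 0.032, adjusted p = 0.45).

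Lipid synthesis genes were lower in high glucose. In fatty acid synthesis 14 of 15 fell and 1 rose (median -0.53), and in cholesterol synthesis 18 of 20 fell and 1 rose (median -0.37). FASN, fatty acid synthase, had 10690.0, 11333, 10660.0 and 11044 in low and 4959.7, 5310.3 and 5234 in high glucose. It was 2.12-fold lower without overlap (-1.08 ± 0.028, adjusted p = 2.6e-15), and replicate 3 at 4434 was lower still. The desaturases FADS2 and SCD fell from 4896 ± 245 to 2405 ± 80.99 (-1.02 ± 0.035) and from 12410.0 ± 102 to 7283 ± 168 (-0.77 ± 0.023). MGLL, a monoglyceride lipase, fell from 487 ± 22.6 to 205 ± 6.77 (-1.24 ± 0.047), and THRSP, a lipogenic regulator that ChREBP is known to induce, from 51.2 ± 6.43 to 21.9 ± 0.608 (-1.18 ± 0.14). ACACB, a mitochondrial acetyl-CoA carboxylase, changed by -0.94 ± 0.14. SREBF1, which encodes the lipogenic factor SREBP1, fell from 1331 ± 27.4 to 864 ± 37.00 (-0.62 ± 0.034). Replicate 3 was below the low cultures for all of these.

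In the sterol pathway MVK, FDPS and ACAT2, enzymes of cholesterol synthesis, changed by -0.88 ± 0.056, -0.87 ± 0.037 and -0.87 ± 0.044, yet replicate 3 was not below the low cultures for any of the 3, at 443, 1171 and 584. Efflux genes went up instead, 4 of 6 rising and 1 falling. ABCA1, a cholesterol exporter, rose from 108 ± 4.41 to 319 ± 19.1 (1.55 ± 0.062, adjusted p = 5.1e-13), though replicate 3 had only 128. With replicate 3 in the fit, 12 of 43 fatty acid and storage genes fell and 4 rose, and of 37 cholesterol genes 7 fell and 7 rose. Overlapping neighbours leave SORD, FADS2, SREBF1 and FDPS less certain.

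Most members of a list of ion and osmolyte balance rose. As with all 33 lists, its members were chosen with earlier results of these data known, so its counts and median give no independent support. The list, marked as calcium, osmolyte and sodium transport in the plots, holds carriers, pumps and channels of sodium, osmolytes and water with the regulators NFAT5, SGK1 and WNK1, aldose reductase AKR1B1 and the chaperone HSPA4L, and no calcium carrier. Of 13 tested members 12 rose and 1 fell (median 0.87), and 9 rose with replicate 3 included. ATP1B1, the beta subunit of the sodium pump (ENSG00000143153, chr1:169074935-169280230, plus strand), had 2639, 2664, 2722 and 2621 in low and 9786, 9985 and 10059 in high glucose. The groups lay 3.74-fold apart (1.901 ± 0.024, adjusted p = 1.2e-19), and replicate 3 had 10960.0. SLC5A3, the sodium-coupled myo-inositol transporter, had 617, 618, 610.1 and 654 in low and 2749, 2792 and 2732 in high glucose (2.14 ± 0.031, adjusted p = 1.1e-18). Replicate 3 was above the low cultures but reached only 1120.5. The pump subunit ATP1B3 rose from 1142 ± 31.5 to 3565 ± 159 (1.64 ± 0.033), and the taurine transporter SLC6A6 from 1303 ± 33.2 to 2482 ± 43.2 (0.93 ± 0.029). NFAT5, the transcription factor of osmotic stress, rose from 589 ± 12.7 to 1079.5 ± 9.53 (0.87 ± 0.032), but replicate 3 had 128, and its adjusted p with that culture was 0.93. The member that fell was SLC12A2, a sodium, potassium and chloride cotransporter, from 919 ± 12.9 to 731 ± 16.98 (-0.33 ± 0.032). The osmolarity of the media has no measurement in these data, so its part was not tested.

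Members of the ATF4 list that carry amino acids were among those that rose. SLC38A2, a neutral amino acid transporter induced by ATF4 and by osmotic stress (ENSG00000134294, chr12:46751971-46766556, minus strand), had 4736, 4628, 4766 and 4666 in low and 16847, 17097 and 17187 in high glucose. This was the gene with the smallest adjusted p of all tested (3.63-fold, 1.86 ± 0.022, adjusted p = 1.0e-19), and replicate 3 had 11803. SLC3A2 and SLC7A5, the chains of the large neutral amino acid exchanger, rose from 1302 ± 34.5 to 3131 ± 18.4 (1.27 ± 0.028) and from 1674 ± 46.9 to 3277 ± 14.7 (0.97 ± 0.027). Of 25 ATF4 targets 17 rose and 4 fell (median 0.24), and of the whole list with the unfolded protein response 27 of 49 rose and 12 fell, or 10 and 2 with replicate 3. NUPR1, a stress-induced chromatin protein, rose from 1003 ± 79.5 to 1886 ± 51.98 (0.91 ± 0.046). DDIT3, the apoptotic factor CHOP, changed by 0.72 ± 0.048 and HSPA5, the chaperone BiP, by 0.53 ± 0.024, while the ATF4 transcript itself did not pass the test (0.017 ± 0.0303, adjusted p = 0.67). ERN1, the stress sensor IRE1, rose from 64.8 ± 5.698 to 137 ± 6.07 (1.08 ± 0.088) with replicate 3 at 20.05, below the low cultures.

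Among heat shock genes 12 of 19 rose and 5 fell (median 0.15), against 20.6% and 37.0% of all genes. With replicate 3 included 7 rose and 0 fell. DNAJB4, a cochaperone, rose from 22.5 ± 1.59 to 66.8 ± 4.01 (1.53 ± 0.13). HSPB8, a small heat shock protein, changed by 0.58 ± 0.034, the mitochondrial chaperone HSPA9 by 0.40 ± 0.025 and HSPH1 by 0.34 ± 0.0302. HSPA1B, which has a near-identical copy, changed by 0.403 ± 0.037. The increase of DNAJB4 thus stood apart in size from those of the chaperones named after it.

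Most genes of MYC and ribosome biogenesis, which usually follow growth, rose in these same cultures. Of 38 genes of MYC and ribosome biogenesis 27 rose and 7 fell (median 0.27), and 13 rose and 3 fell with replicate 3. AMD1 and ODC1, the enzymes that commit to polyamine synthesis, rose from 1019 ± 21.7 to 2629 ± 45.3 (1.37 ± 0.028, adjusted p = 1.2e-16) and from 82.2 ± 7.51 to 241 ± 25.7 (1.54 ± 0.086). NOP56, a nucleolar ribonucleoprotein, rose from 413 ± 5.59 to 816 ± 33.6 (0.98 ± 0.038), and MYC itself from 257 ± 7.81 to 400.0 ± 22.6 (0.64 ± 0.049, adjusted p = 3.5e-09). The MYC antagonists split, with MXD1 rising by 0.89 ± 0.0598 and MXD3 changing by -1.37 ± 0.14. Replicate 3 was above the low cultures for AMD1, ODC1, NOP56 and MYC.

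Replicate 3 stood far from the other cultures for ribosomal protein and oxidative phosphorylation genes. Of 79 cytosolic ribosomal protein genes 49 rose and 8 fell with a small median of 0.12, and 65 rose and 2 fell after rescaling. RPS13, RPS19 and FAU, subunit genes of the small ribosomal subunit, changed by 0.45 ± 0.043, 0.39 ± 0.043 and 0.397 ± 0.039. Replicate 3 was above all low cultures for 79 of 79, and with it 0 rose and 0 fell in limma's test (6 and 0 at an unadjusted p of 0.05). Of 77 nuclear oxidative phosphorylation genes 51 fell and 6 rose (median -0.22), among them 28 of 38 complex I genes, and 38 fell and 12 rose after rescaling. Again replicate 3 was above the low cultures for 76 of 77, and with it 0 fell and 1 rose. NDUFV1, a core complex I subunit, changed by -0.76 ± 0.046, NDUFB1 by -0.75 ± 0.072, NDUFA7 by -0.65 ± 0.14, and the ATP synthase genes ATP5G1 and ATP5G2 by -0.81 ± 0.092 and -0.71 ± 0.048.

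Of the transcripts of the mitochondrial genome 7 of 13 rose and 4 fell (median 0.19), or 9 and 1 after rescaling. The shares over all genes were 20.6% rising and 37.0% falling, or 28.4% and 27.7% after rescaling. In the values as given the falling share was near that of all genes. MT-ND2, a complex I subunit, had 15587, 14336, 14046 and 13914 in low and 23553, 23496 and 26377 in high glucose. The groups were apart (0.76 ± 0.0399, adjusted p = 2.2e-11), with replicate 3 at 36840.0. MT-ND1 rose by 0.54 ± 0.043, MT-ND3 by 0.46 ± 0.048, and MT-ND4L and MT-ND5 by 0.298 ± 0.052 and 0.28 ± 0.038, with replicate 3 of MT-ND4L at 3561, below the low cultures. With replicate 3 included 2 rose and 0 fell.

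Interferon-stimulated genes fell, 27 of 39 tested with none rising in limma's test of the values as given (median -0.52). At an unadjusted p of 0.05 1 rose, and edgeR called 2 higher. After rescaling 25 fell and 2 rose, and 17 fell and 0 rose with replicate 3 included. OAS3, an oligoadenylate synthetase that senses viral RNA, had 631, 662, 635 and 639 in low and 212, 216 and 234 in high glucose. It was 2.91-fold lower without overlap (-1.54 ± 0.043, adjusted p = 5.3e-15), and replicate 3 had 127. Its relatives OAS2 and OAS1 fell from 58.9 ± 5.83 to 14.5 ± 4.61 (-1.99 ± 0.18) and from 76.7 ± 5.196 to 26.8 ± 2.67 (-1.48 ± 0.12). MX1, a dynamin-like antiviral protein, fell from 123 ± 8.34 to 55.8 ± 2.05 (-1.12 ± 0.084), DDX60, a helicase of RNA sensing, from 59.2 ± 6.46 to 26.2 ± 3.82 (-1.15 ± 0.14), and IFIT1, chosen after its values were seen, from 54.5 ± 3.25 to 28.2 ± 1.23 (-0.93 ± 0.12).

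Promoters of OAS3 and IFIT1 are shown because promoters of the interferon list often hold a motif, the core GAAA, any 2 bases, GAAA of the interferon-stimulated response element, in capitals on either strand. The windows are RefSeq GRCh38.p14, chr12:112938314-112938473, plus strand, for OAS3 and chr10:89392463-89392622, plus strand, for IFIT1.
OAS3: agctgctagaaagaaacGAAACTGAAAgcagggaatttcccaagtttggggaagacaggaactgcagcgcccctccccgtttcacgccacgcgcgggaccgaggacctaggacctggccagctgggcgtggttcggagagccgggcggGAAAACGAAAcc
IFIT1: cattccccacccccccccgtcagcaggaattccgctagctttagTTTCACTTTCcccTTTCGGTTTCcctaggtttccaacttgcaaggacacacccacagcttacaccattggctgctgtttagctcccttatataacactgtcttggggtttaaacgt
The core was found in 17 of 29 matched promoters of the list (58.6%) against 3.02% of all promoters, within 250 bases before the start.

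MHC class I genes moved both ways, with 5 of 16 rising and 6 falling, against 20.6% and 37.0% of all genes. After rescaling 5 rose and 4 fell, against 28.4% and 27.7%, so these shares lay near those of all genes. B2M, the light chain of class I molecules, rose from 1495 ± 12.1 to 2928 ± 55.2 (0.97 ± 0.026, adjusted p = 3.2e-15), HLA-E from 222 ± 9.58 to 362 ± 12.6 (0.705 ± 0.05) and HLA-B by 0.52 ± 0.0602. The proteasome activator gene PSME1 fell from 848 ± 34.1 to 526 ± 6.97 (-0.69 ± 0.037), but replicate 3 at 1309.9 was above the low cultures, and TAP2, a peptide transporter, overlapped between groups. Reads of HLA genes can be shared between members and alleles. Of 29 TNF and NF-kappaB targets 15 rose and 3 fell (median 0.36), 10 and 1 with replicate 3. SAT1, a polyamine acetyltransferase, rose from 345 ± 12.9 to 919.9 ± 7.21 (1.41 ± 0.039), IER3, an early survival gene, from 710.2 ± 20.3 to 1624 ± 42.7 (1.19 ± 0.033), IL8, a neutrophil chemokine, from 47.4 ± 2.73 to 101 ± 7.68 (1.08 ± 0.098) and BIRC3, an inhibitor of apoptosis, from 7.79 ± 1.68 to 25.8 ± 5.26 (1.61 ± 0.22). TNFAIP3, a brake on NF-kappaB, changed by 0.97 ± 0.22.

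Of 27 immediate early genes 12 rose and 6 fell (median 0.12), against 20.6% and 37.0% of all genes. After rescaling 14 rose and 2 fell (median 0.24), against 28.4% and 27.7% of all genes. With replicate 3 included 10 rose and 1 fell. FOS rose from 20.5 ± 2.82 to 66.4 ± 12.2 (1.65 ± 0.15), EGR1 from 10.5 ± 1.35 to 18.9 ± 3.05 (0.79 ± 0.21), KLF4 by 0.92 ± 0.11 and ATF3 by 0.88 ± 0.103. EGR3 fell from 222 ± 6.51 to 123.99 ± 7.56 (-0.84 ± 0.061). JUN, the partner of FOS, changed by -0.19 ± 0.049 (adjusted p = 0.0024), with its direction reversed once length and GC trends were removed (0.043).

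Hormone receptor and luminal genes moved in both directions. Of 28 tested 11 rose and 17 fell (median -0.24), against 20.6% and 37.0% of all genes. With replicate 3 included 3 rose and 5 fell. ESR1, the estrogen receptor gene, had 3179.5, 3133, 3179 and 3221 in low and 3837, 3962 and 3870.4 in high glucose. The high cultures were above the low ones (1.22-fold, 0.29 ± 0.024, adjusted p = 9.4e-09), but replicate 3 at 2796 was below them. PGR, the progesterone receptor gene, showed the same pattern, from 655 ± 27.02 to 829 ± 44.8 (0.34 ± 0.042) with replicate 3 at 389. GATA3 changed by -0.42 ± 0.038, whereas the small change of FOXA1 (-0.098 ± 0.027) reversed to 0.021 after rescaling. ERBB3, a neuregulin receptor, fell from 2399 ± 38.9 to 1432 ± 12.5 (-0.74 ± 0.026). KRT7, a simple-epithelium keratin, and SPDEF, a luminal transcription factor, changed by -1.22 ± 0.052 and -0.89 ± 0.038 with replicate 3 above the low cultures, while ELF3, another epithelial factor, rose by 0.69 ± 0.045.

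Estrogen-induced genes showed no common direction, with 13 of 28 rising, 11 falling and a median of -0.006 that became 0.11 after rescaling. Their falling share was near the 37.0% of all genes, of which 20.6% rose. GREB1, a cofactor of the estrogen receptor, rose from 1339 ± 33.1 to 2469.6 ± 54.7 (0.88 ± 0.029), but replicate 3 reached only 1428. CXCL12, a chemokine, rose from 584 ± 20.5 to 1374 ± 5.47 (1.23 ± 0.034), and KCNK5, a potassium channel, from 14.9 ± 1.49 to 58.7 ± 2.32 (1.91 ± 0.15), both shared by replicate 3. Of 32 growth factor receptor and pathway genes 14 rose and 12 fell (8 and 4 with replicate 3), again a falling share near that of all genes. FGFR4, a fibroblast growth factor receptor, had 908, 967, 965 and 1008 in low and 249, 248 and 259 in high glucose. It was 3.82-fold lower (-1.93 ± 0.0403, adjusted p = 1.2e-16), with replicate 3 at 482, while FGFR3 changed by -0.79 ± 0.11. HBEGF, a ligand of the epidermal growth factor receptor, rose from 15.96 ± 3.198 to 58.7 ± 3.46 (1.83 ± 0.17). In the insulin and IGF branch 6 of 10 rose and 2 fell, with IRS2, an insulin receptor substrate, rising from 33.2 ± 6.44 to 87.3 ± 9.17 (1.38 ± 0.14) and IGFBP3, a binding protein of insulin-like growth factors, from 17.4 ± 0.241 to 43.7 ± 2.43 (1.28 ± 0.15).

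Among redox and iron genes 18 of 45 rose and 17 fell, which became 24 and 10 after rescaling and 9 and 3 with replicate 3. Of all genes 20.6% rose and 37.0% fell, or 28.4% and 27.7% after rescaling. Of 19 NRF2 targets 11 rose and 4 fell (12 and 2 after rescaling). Of 12 other antioxidant enzymes 1 rose and 9 fell in the values as given, and 2 rose and 5 fell after rescaling. HMOX1, heme oxygenase, rose from 116 ± 8.98 to 371 ± 5.43 (1.67 ± 0.063, adjusted p = 2.7e-13), and FTL, the ferritin light chain, from 2533 ± 144 to 5770.4 ± 280.3 (1.19 ± 0.039). SLC30A1, a zinc exporter, rose from 719 ± 20.4 to 1459 ± 31.99 (1.02 ± 0.033), while GPX2, a glutathione peroxidase, and ABCC3, a conjugate exporter, changed by -1.41 ± 0.27 and -1.11 ± 0.23 at low levels. CYP1A1, a target of the aryl hydrocarbon receptor, rose from 45.9 ± 7.92 to 174 ± 13.7 (1.91 ± 0.12), and 3 of 10 genes of that pathway rose and 1 fell (6 and 1 after rescaling). AHR and TIPARP rose by 0.76 ± 0.056 and 0.41 ± 0.035, with replicate 3 at 188 and 962, not above the low cultures.

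Of 27 hypoxia-inducible genes 9 rose and 8 fell (median -0.018), against 20.6% and 37.0% of all genes. After rescaling 13 rose and 6 fell (median 0.101), against 28.4% and 27.7% of all genes. ADM, a vasodilator peptide gene, rose from 43.3 ± 5.38 to 123.73 ± 11.5 (1.498 ± 0.11) and EPAS1, a hypoxia-inducible factor, by 0.68 ± 0.0602. NDRG1 fell from 767 ± 27.9 to 372 ± 14.96 (-1.04 ± 0.0404), DDIT4, an inhibitor of mTORC1, by 0.85 and PFKFB4 by 0.74 on the log2 scale. Lysosome and autophagy genes leaned upward, 36 of 68 rising and 18 falling (median 0.14), and 16 and 1 with replicate 3. Among membrane and proton pump genes 10 of 14 rose. NEU1, the lysosomal sialidase, rose from 1189 ± 40.7 to 2631 ± 75.9 (1.15 ± 0.032), SQSTM1, an autophagy receptor, from 1686 ± 73.7 to 2913 ± 61.9 (0.79 ± 0.032), the pump subunit ATP6V1C1 by 0.84 ± 0.033 and the calcium channel MCOLN1 by 0.81 ± 0.061. TFEB, the transcription factor of lysosomal genes, did not pass the test (0.045 ± 0.12, adjusted p = 0.77). CACGTG was found in 10 of 49 matched lysosome promoters (20.4%) against 6.34% of all.

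Junction and mesenchymal genes gave no single direction, 16 of 56 rising and 19 falling, with a median of -0.094 that became 0.016 after rescaling. Of all genes 20.6% rose and 37.0% fell, so the falling share was near that of all genes. Among mesenchymal genes alone 4 of 20 rose and 5 fell, and among junction genes 5 of 21 rose and 10 fell. CDH1, E-cadherin, changed by -0.28 ± 0.021, and VIM, vimentin, did not pass the test (0.617 ± 0.537 and 0.486 ± 0.498, adjusted p = 0.85). ZEB1, a repressor of epithelial genes, rose from 4.22 ± 0.377 to 14.7 ± 1.98 (1.58 ± 0.24), whereas TWIST1, another factor of the mesenchymal programme, fell from 32.8 ± 2.37 to 14.7 ± 1.28 (-1.102 ± 0.16). TGFBR3, a coreceptor of TGF-beta, rose by 0.902 ± 0.0505, while MMP14, INHBB and TGFB3 changed by -0.74 ± 0.04, -0.699 ± 0.055 and -0.68 ± 0.077. Of 17 axoneme and cilia genes 6 fell and 1 rose, a falling share near the 37.0% of all genes. FOXJ1, the master factor of motile cilia, rose from 26.9 ± 4.31 to 46.8 ± 5.76 (0.78 ± 0.15).

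**Figure D3:**
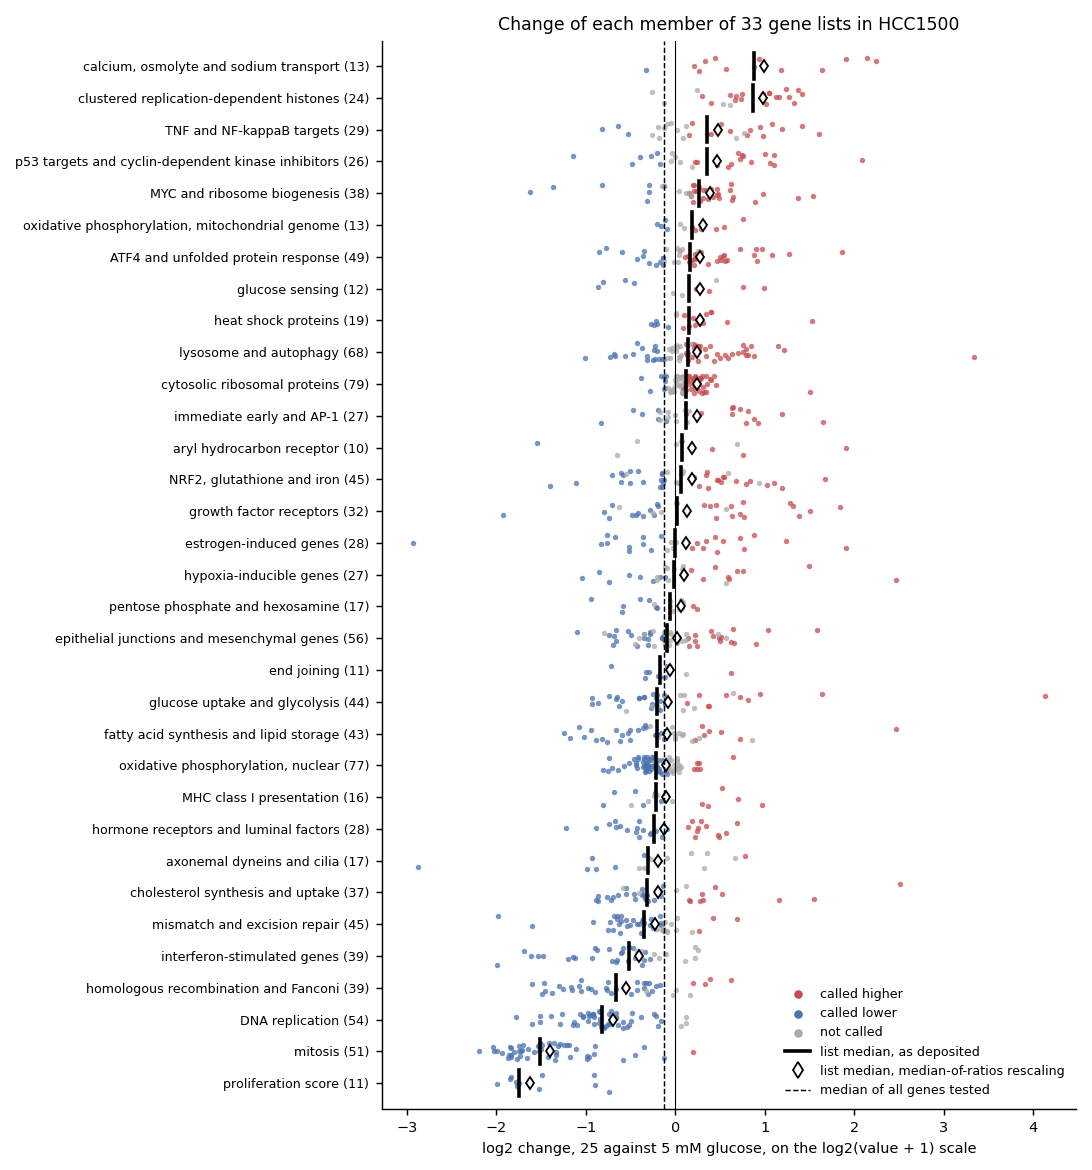
Log2 change (high minus low glucose, x axis) of every tested member of 33 gene lists (1 dot per gene, 1 list per line), with a black bar for the list median of the deposited values, an open diamond for the median once rescaled by median of ratios and a dashed line for the median of all genes at -0.12. Mitosis (-1.51), the proliferation score (-1.75) and DNA replication (-0.82) have the lowest medians, and the transport list (0.87) and histones (0.86) the highest. The lists were chosen with earlier results of these data known.

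Averaged over a list's tested members, the level of each culture shows how far replicate 3 followed the others. Relative to the low glucose mean, the mitosis list stood at -1.44 to -1.37 in the 3 high cultures and at -1.23 in replicate 3, on the log2 scale. Interferon-stimulated genes stood at -0.64 to -0.58 and -0.34, and histones at 0.71 to 0.896 and 1.16. For these 3 lists replicate 3 was on the same side as the others. Because its values followed gene length and GC content, this side cannot be told apart from that trend. Nuclear oxidative phosphorylation genes stood at -0.22 to -0.19 but at 1.097 in replicate 3, and cytosolic ribosomal protein genes at 0.12 to 0.15 against 1.62. Glycolysis genes, at -0.015 to -0.002, were at 0.48 there.

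**Figure D4:**
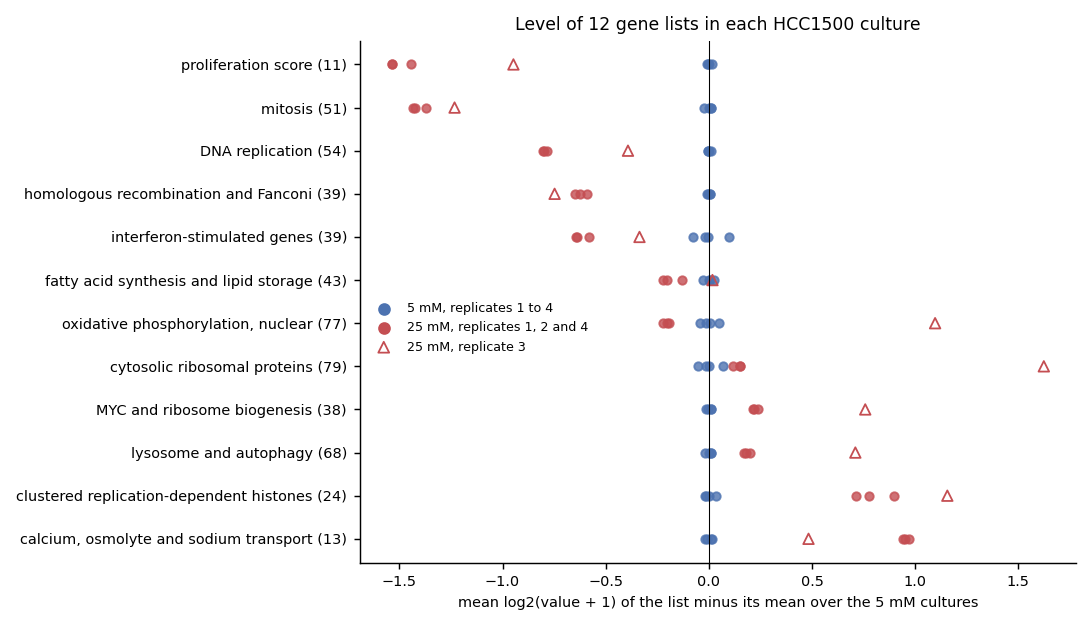
Mean log2(value + 1) over the tested members of 12 gene lists in each HCC1500 culture, relative to the low glucose mean (x axis, log2 units), with dots for the 7 cultures compared and an open triangle for high glucose replicate 3. The high glucose dots for mitosis sit at -1.44 to -1.37. For nuclear oxidative phosphorylation (1.097) and ribosomal proteins (1.62) the triangle lies to the right of the high glucose dots.

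The HCC1500 change was tested against the mean change of the other 2 ER+ lines, MDA-MB-175 and ZR-75-30, in a limma fit over 23 cultures. It differed for 7079 of 18241 genes (38.8%), being more positive in HCC1500 for 2447 and more negative for 4632. The median difference over all genes was -0.11, so small negative differences should be read against it. ATP1B1 changed by 1.901 in HCC1500, 0.53 in MDA-MB-175 and 0.39 in ZR-75-30 (difference 1.44 ± 0.039, adjusted p = 1.4e-17). AMD1 changed by 1.37 in HCC1500, -0.18 in MDA-MB-175 and 0.17 in ZR-75-30 (difference 1.37 ± 0.045, adjusted p = 2.1e-16). PFKP was named by this test too, but as it was at 0 in the low glucose cultures of HCC1500, its fitted difference is set by the 1 added before the logarithm and gives no size. SLC38A2 changed by 1.86 in HCC1500, 1.19 in MDA-MB-175 and 0.25 in ZR-75-30 (difference 1.14 ± 0.038, adjusted p = 2.3e-16). CHD2, a chromatin remodeler, changed by 1.06 in HCC1500, 0.19 in MDA-MB-175 and 0.13 in ZR-75-30.

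More negative in HCC1500 were MGLL, with -1.24 in HCC1500, 0.78 in MDA-MB-175 and 0.12 in ZR-75-30 (difference -1.69 ± 0.055, adjusted p = 2.1e-16), and ST6GALNAC2, a sialyltransferase, with -1.32 in HCC1500, -0.33 in MDA-MB-175 and 0.53 in ZR-75-30 (difference -1.42 ± 0.042, adjusted p = 5.6e-17). PRC1, a spindle midzone protein, changed by -1.71 in HCC1500, -0.39 in MDA-MB-175 and -0.58 in ZR-75-30. IL1R1, the interleukin-1 receptor, changed by -1.496 in HCC1500, -0.20 in MDA-MB-175 and 0.078 in ZR-75-30, and SCRN1 by -0.61 in HCC1500, 0.53 in MDA-MB-175 and 0.75 in ZR-75-30. Of all genes in this test 4632 of 18241 were more negative in HCC1500, and the list counts that follow should be read beside that share. Mitosis genes had median changes of -1.51 in HCC1500, -0.46 in MDA-MB-175 and -0.77 in ZR-75-30, and 46 of 51 were more negative in HCC1500. DNA replication genes had medians of -0.82 in HCC1500, -0.27 in MDA-MB-175 and -0.89 in ZR-75-30 (25 of 54 more negative, 3 more positive). For recombination and Fanconi genes the medians were -0.67, -0.24 and -0.86 in the same order (15 of 39 more negative, 5 more positive). In both lists the ZR-75-30 median was the lowest. Interferon-stimulated genes had medians of -0.52 in HCC1500, -0.12 in MDA-MB-175 and 0.52 in ZR-75-30, 30 of 39 being more negative, and MHC class I genes medians of -0.22 in HCC1500, 0.26 in MDA-MB-175 and 0.84 in ZR-75-30, 13 of 16 being more negative.

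In the other direction, 28 of 38 MYC and ribosome biogenesis genes were more positive in HCC1500 (medians 0.27 in HCC1500, -0.11 in MDA-MB-175 and -0.21 in ZR-75-30). The same held for 12 of 24 histones (medians 0.86 in HCC1500, 0.00 in MDA-MB-175 and 0.031 in ZR-75-30) and 9 of 13 ion and osmolyte genes (medians 0.87 in HCC1500, 0.081 in MDA-MB-175 and 0.32 in ZR-75-30). Of 43 fatty acid and storage genes 24 were more negative and 6 more positive. Over all 18241 genes 2447 were more positive and 4632 more negative. The test is of each gene's difference, and the lists carry no test of their own. Annotated exons overlap those of other genes over more than 10% of their length also for ACAT2, AHR, CDKN2C, CTB-175E5.4, DAK, DDIT3, ELF3, FDPS, G6PC3, HIST1H3D, HIST1H4H, HLA-B, HSPA1B, IER3, MLX, MXD3, NDUFA7, NDUFV1, NUPR1, OGG1, PLK1, PRC1, RAD54L, SQSTM1, ST6GALNAC2, TAP2, TP53BP1, VIM and XRCC1, so the values of these genes are uncertain in the same way.

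**Figure D5:**
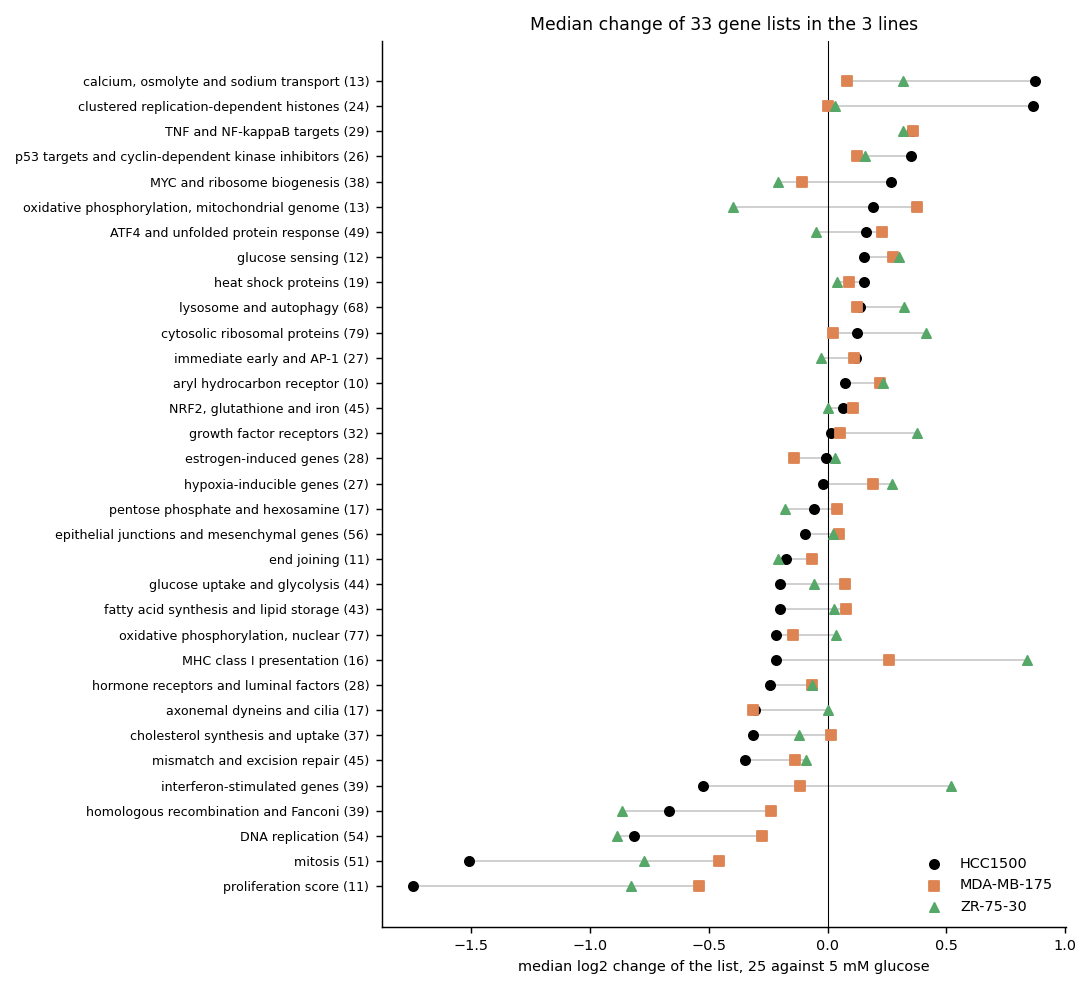
Median log2 change (high minus low glucose) of the tested members of each gene list on the horizontal axis, 1 row per list, with 1 symbol each for HCC1500, MDA-MB-175 and ZR-75-30. The mitosis medians are -1.51 in HCC1500, -0.46 in MDA-MB-175 and -0.77 in ZR-75-30, and the interferon medians -0.52 in HCC1500, -0.12 in MDA-MB-175 and 0.52 in ZR-75-30.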

How the data were processed

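RNA from HCC1500 cultures was extracted with RNeasy Plus Mini Kits, checked for integrity and sequenced on an Illumina HiSeq. For each gene and culture the authors deposited a normalized signal. The study's methods describe CPM with TMM factors for its expression data, but the deposited totals of 5559394 to 7319781 are not those of CPM, and over the HCC1500 cultures the values lay 2.66 to 2.97 above CPM with TMM factors on the log2 scale, so they match no constant multiple of it. Which scaling gave them is uncertain. Values came in steps of a fixed size per culture, and whole reads were recovered from them for 100% of values (tolerance 0.05 reads). The submitters' processing notes name edgeR and hg38, while the study's methods give Trimmomatic, TopHat and hg19 for tumor libraries, so the build behind these values is uncertain. Coordinates are from GENCODE v44 lifted to GRCh37, matched for 97.2% of gene IDs, and promoters from RefSeq GRCh38.p14. Strand handling and RNA selection were not stated for these libraries either. For tumor libraries the study's methods name a TruSeq stranded mRNA kit.

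Values were tested as log2(value + 1) with limma 3.58.1 in R 4.3.3 (trended variance prior, no covariate), and genes under a Benjamini-Hochberg adjusted p of 0.05 were called. All adjusted p-values are limma's unless another tool is named. Levels near that of a few reads are imprecise, 3 reads being worth 0.953 to 1.77 units. Difference between lines was an interaction contrast in a 6-group fit without high glucose replicate 3 of HCC1500. Alternatives were edgeR 4.0.16 and DESeq2 1.42.0 on recovered reads (9119 and 7975 genes called), and other pseudocounts, filters and scalings. Further ones were removal of length and GC trends, inclusion of replicate 3, a replicate block and leaving out each of the 7 HCC1500 cultures. The scripts were tested on simulated data.

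The members and the 33 gene lists were chosen with earlier results of these data known. Named genes were TXNIP and ARRDC4, the 10 largest rises and falls without overlap and with a mean of at least 20, up to 5 called members of each list with the largest change and a mean of at least 10, landmark genes, and 5 genes per direction for the difference between lines. Others are marked as chosen after their values were seen. Some genes that this rule names are not reported here. Replicates of a group differed by more than sampling noise, so none was counted as a duplicate.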

Additional observations from a re-analysis of the deposited data

Results flagged for a closer look

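In 7 of 174 named genes examined, 1 of the 4 low glucose cultures lay apart from the other 3, its gap relative to the group's range being over Dixon's critical value. Chance alone flags about 1 in 20 such groups, and 7 of 174 is not above that. Low glucose replicate 1 had 1030.3 for FDPS against 1119 to 1125 in the others, 792 for ATP5G2 against 893 to 913, and was high for MCM10 at 230 (229.93) and for ADM at 51.3. Low glucose replicate 2 was high for HSPA1B at 1919. Low glucose replicate 4 was high for THRSP at 60.7 and low for TAP2 at 26.3. In high glucose, the deposited total of replicate 3 was 7319781, apart from the other 3.

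The change differed between HCC1500 and the mean of the other lines, by the test of the difference, for the 10 genes named for it. The difference on the log2 scale was 1.44 for ATP1B1, 1.37 for AMD1, 1.14 for SLC38A2 and 0.90 for CHD2. For PFKP, at 0 in low glucose in HCC1500, the fitted 3.67 depends on the added 1 and gives no size. It was -1.42 for ST6GALNAC2, -1.69 for MGLL, -1.22 for PRC1, -1.24 for SCRN1 and -1.43 for IL1R1. SCRN1 and MGLL had positive changes in both other lines and negative ones in HCC1500.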

How the results depend on the processing

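Inclusion of high glucose replicate 3 left 3324 called genes in place of 9520, and 3529 with edgeR, an alternative chosen after seeing the data. The count of genes whose change differed between lines went from 7079 to 4477. Of 205 named genes 153 then held their call, 51 lost it and none turned and was called. A minimum log2 change of 1 left 1224 genes. Leaving out each of the 7 HCC1500 cultures in turn gave 8916 to 9120 called genes and 6453 to 6726 differences between lines. No culture of the other lines was left out. The remaining alternatives gave 7796 to 9541 called genes and 6530 to 7850 differences, within 1.5 times the main counts. The direction reversed for 5 named genes. FOXA1 became 0.021 under median of ratios, 0.0083 in edgeR, 0.021 in DESeq2 and 0.069 with length and GC trends removed. GFPT1 became 0.088 under median of ratios, JUN 0.043 and MLXIP 0.21 with length and GC trends removed, and NDUFA7, at -0.65 without it, 0.013 in edgeR with replicate 3. The cause was not tested. Deviations of same-numbered cultures correlated at -0.037, -0.055 and -0.021, against -0.036 to 0.036 for differently numbered ones. No shared deviation was seen, but so few correlations can miss a modest shared effect and do not settle whether flasks were paired. The replicate block gave 8932 called genes and 6683 differences and changed no call among the 205 named genes. Depth limits genes near 3 reads, such as PDK4 and PFKP in low glucose.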
